A study of Mus musculus with 24 samples.

Results

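The comparison described here sets the lungs of mice given diesel exhaust particles of the sample coded NDEP together with ovalbumin (NDEP/OVA) against the lungs of mice given ovalbumin without particles (Saline/OVA). Its members are the 6 arrays whose titles carry these treatments, 3 NDEP/OVA arrays and 3 Saline/OVA arrays, out of 24 arrays in the series. The whole study profiled lung RNA from 8 groups of 3 mice on Affymetrix expression arrays: 3 particle samples (NDEP, ADEP and CDEP) with ovalbumin, ovalbumin without particles, the same 3 particle samples without ovalbumin, and saline. All animals were female BALB/C mice, 8 to 10 weeks old. Each NDEP/OVA mouse received 150 ug of particles and 20 ug of ovalbumin, instilled through the nose on days 0 and 13. Each Saline/OVA mouse received 20 ug of ovalbumin by the same route on the same days. Lungs were taken 18 hours after the second instillation. The labels mark both groups as sensitized, and ovalbumin is therefore shared by NDEP/OVA and Saline/OVA mice. The NDEP and Saline groups, which are used below for the same particle without ovalbumin, are labelled as not sensitized. Each NDEP mouse received 150 ug of particles without ovalbumin, and each Saline mouse received neither. Their doses were also on days 0 and 13, with lungs taken 18 hours after the second. The labels give the particle samples only by these codes.

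Ovalbumin is the egg white protein used as a model allergen in mice, and diesel exhaust particles are soot cores that carry metals and organic compounds. Particles given with an allergen are known to act as an adjuvant, so that later contact with the allergen can bring T helper 2 (Th2) type inflammation: interleukin 4 and interleukin 13 signal through STAT6 in airway epithelium and macrophages, goblet cells make mucus, and macrophages take on the alternatively activated state with chitinase-like proteins. Particles by themselves are known to bring neutrophil chemokines and acute phase proteins through NF-kB, and their organic compounds can act on the aryl hydrocarbon receptor.

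Values are log2 intensities of 1 probe set per gene, the one with the highest mean log2 over the 24 arrays, for 12393 genes. The pairwise correlation over genes among the 24 arrays was between 0.983 and 0.996. The 10 genes fixed to check that the tissue is lung (surfactant proteins, Scgb1a1, Nkx2-1 and others) had a mean log2 intensity of 11.33 to 11.46 in NDEP/OVA lungs and 11.31 to 11.37 in Saline/OVA lungs. Ovalbumin without particles gave no gene past the threshold against saline (0 of 12393 by limma at an adjusted p of 0.05, with 818 at an unadjusted p under 0.05 and a smallest adjusted p of 0.0798). Heart muscle genes moved with the groups: their summed intensity was 4511 to 6442 in NDEP/OVA lungs and 8499 to 9367 in Saline/OVA lungs. The log2 difference between the 3' and 5' control probe sets of Actb, a measure of RNA quality, also did not overlap between the groups (0.953 to 1.085 in NDEP/OVA arrays and 0.729 to 0.914 in Saline/OVA arrays), whereas that of Gapdh did. With the heart muscle and fat lists as covariates 277 genes passed, 159 of them among the genes of the fit without covariates, and with the RNA quality measures as covariates 330 passed, 209 of them shared. In lung tissue taken whole, fewer cells of a type and less RNA per cell cannot be told apart.

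NDEP/OVA lungs had 216 genes higher and 41 genes lower than Saline/OVA lungs at a limma adjusted p of 0.05. These were 1.74% and 0.331% of the genes tested, or 2.07% in either direction. Of the genes that rose, 60 did so by at least 2-fold and 12 by at least 4-fold, whereas 2 genes fell by at least 2-fold. The median log2 difference was 0.72 among the genes that rose and -0.65 among those that fell, with a median SE of 0.15, and over all genes it was 0.02. Of all 12393 genes, 6795 had a positive difference. All genes were read on the same 6 arrays, so a count of genes by sign is not a count of separate observations. The 3 NDEP/OVA arrays lay above the 3 Saline/OVA arrays for 213 of the 216 and below them for all 41, while over all genes 9.21% lay above and 6.76% below without overlap. The largest rises were in genes of mucus secretion (Clca1, Slc26a4, Agr2), chitinase-like proteins (Chil4, Chil3), acute phase and antimicrobial proteins (Orm1, Saa3, Lcn2), neutrophil chemokines (Cxcl5, Cxcl1) and macrophage products (Retnla, Mmp12, Timp1). The count depended on single mice: it was 78 without NDEP/OVA replicate 3, 79 without Saline/OVA replicate 2, 159 without Saline/OVA replicate 3 and 423 without NDEP/OVA replicate 2, and 64 of the 257 calls passed whichever of the 6 arrays was left out. Fitted on these 6 arrays without the other 18, 102 genes passed, and Clca1 (adjusted p = 0.0521), Timp1 (0.0521), Agr2 (0.0538), Retnla (0.14) and Saa3 (0.18) were not among them. At the threshold, Gstm2 lay just inside (log2 difference of -0.32, adjusted p = 0.0498) and Spdef, a goblet cell transcription factor, just outside (0.58, adjusted p = 0.0501).

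**Figure D1:**
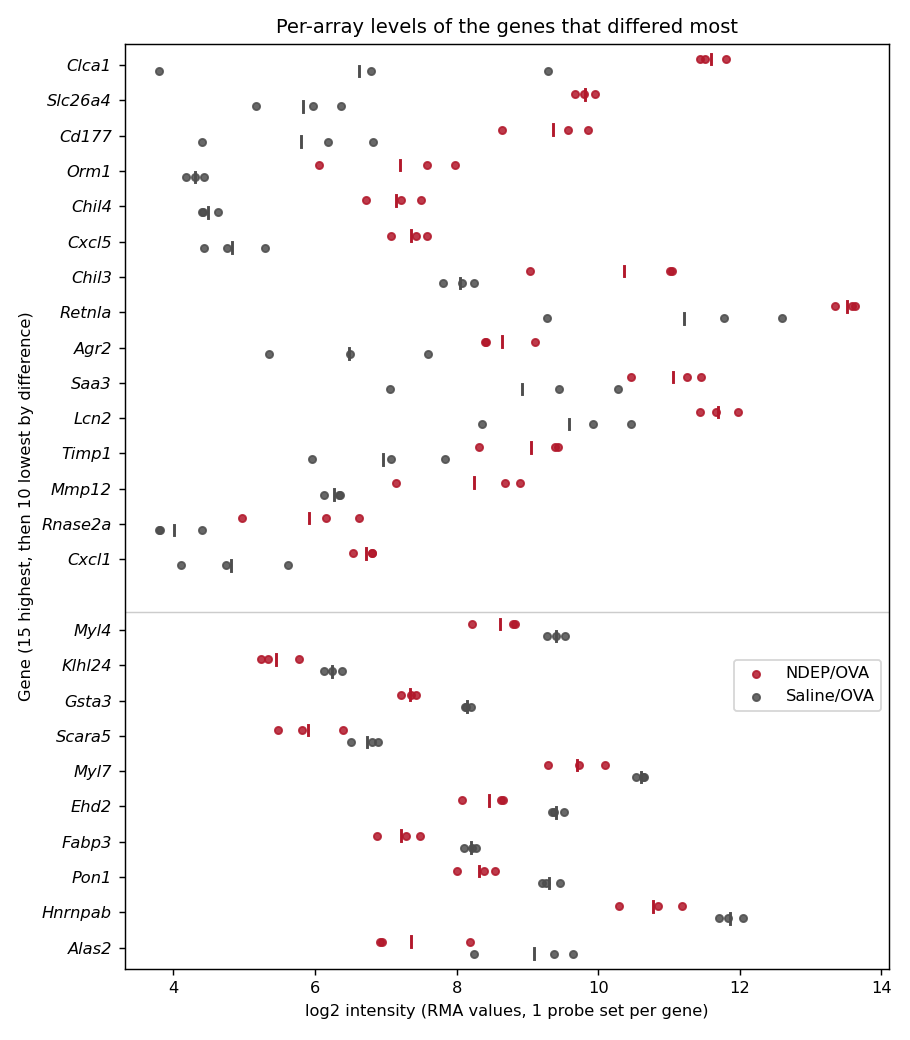
Log2 intensity on each of the 3 NDEP/OVA arrays (red, upper row of each gene) and the 3 Saline/OVA arrays (grey, lower row), with the group mean as a short vertical line, for the 15 genes with the highest and the 10 with the lowest log2 difference among those past the threshold without overlap. The Saline/OVA arrays were spread widely for Clca1 (3.80 to 9.29) and Retnla (9.27 to 12.60), while the NDEP/OVA arrays were close together for both.

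The goblet cell and mucus list held the largest changes. Of its 18 measured members, 10 rose and 0 fell, where 1.74% of all genes rose. The median log2 difference over the list was 0.96. The 3 NDEP/OVA arrays lay above all Saline/OVA arrays for 15 of the 18, against 9.21% of all genes. Clca1, a secreted protein of goblet cells that shapes mucus, had 11.51, 11.44 and 11.81 in NDEP/OVA lungs, against 6.79, 3.80 and 9.29 in Saline/OVA lungs. All NDEP/OVA lungs were high and alike, while the Saline/OVA lungs lay more than 5 log2 units apart, and the groups did not overlap. The Clca1 difference was 4.96 ± 0.90 (SE, limma adjusted p = 0.00237), and without Saline/OVA replicate 2 it was 3.55 (adjusted p = 0.0276). This SE, like every SE given here, pools the spread of a gene over all 8 groups. It does not measure the spread of the 6 compared arrays, on which alone Clca1 did not pass (adjusted p = 0.0521). A second and dimmer probe set of Clca1 differed by 1.0. Slc26a4 encodes pendrin, the anion exchanger of airway epithelium, and stood at 9.96, 9.67 and 9.80 in NDEP/OVA lungs, against 6.37, 5.16 and 5.97 in Saline/OVA lungs. Its difference of 3.97 ± 0.29 had the smallest adjusted p of all genes (1.08e-08), and no array of one group came near the other group.

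Muc5ac, the gel-forming mucin that goblet cells make in allergic airways, had 7.52, 7.24 and 7.82 in NDEP/OVA lungs, against 5.94, 6.24 and 6.28 in Saline/OVA lungs. This rise of 1.37 ± 0.18 (adjusted p = 7.16e-05) rested on narrow groups that did not overlap. Fcgbp, a mucus protein that binds the Fc part of IgG, was 8.83, 8.21 and 8.70 in NDEP/OVA lungs, against 6.76, 6.68 and 7.46 in Saline/OVA lungs, a difference of 1.62 ± 0.25 (adjusted p = 0.000486). Agr2, the disulfide isomerase that folds mucins, read 9.10, 8.40 and 8.42 in NDEP/OVA lungs, against 6.49, 5.35 and 7.60 in Saline/OVA lungs. The difference of 2.16 ± 0.45 (adjusted p = 0.00861) was past the threshold although Saline/OVA replicate 3 came within 1 log2 unit of the lowest NDEP/OVA lung, and its second, dim probe set differed by 0.26. The other members that rose were Muc5b, the mucin of resting airways (log2 difference of 1.46 ± 0.28), the IgA transporter Pigr (1.77 ± 0.32), the secreted antibacterial Bpifb1 (1.48 ± 0.31), the trefoil peptide Tff2 (1.16 ± 0.23) and the lectin Itln1, whose Saline/OVA mean was dim. Of the 10 calls, 5 passed whichever array was left out, and without Saline/OVA replicate 2, the lowest Saline/OVA array on the list's mean, 5 passed. The calls lost were those of Agr2 without Saline/OVA replicate 2 (adjusted p = 0.109), Muc5b without Saline/OVA replicate 2 (adjusted p = 0.0531), Bpifb1 without Saline/OVA replicate 2 or NDEP/OVA replicate 1 (adjusted p up to 0.117), Tff2 without Saline/OVA replicate 2 or NDEP/OVA replicate 3 (adjusted p up to 0.0671) and Itln1 without Saline/OVA replicates 1, 2 or 3 or NDEP/OVA replicates 1 or 3 (adjusted p up to 0.238).

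The mean log2 intensity of the goblet list was 7.84, 7.50 and 7.67 in NDEP/OVA lungs, against 6.45, 5.90 and 6.78 in Saline/OVA lungs. Over all genes 1.74% rose and 0.331% fell, so 0 of 10 is near that share. In the lists of other airway cells, 0 of 10 ciliated cell markers passed (median of 0.02), and among 10 club cell markers 0 rose and 1 fell (median of -0.17). That gene was Cyp2f2, the cytochrome P450 of club cells, with 12.97, 13.01 and 12.72 in NDEP/OVA lungs, against 13.38, 13.33 and 13.42 in Saline/OVA lungs and a difference of -0.48 ± 0.11 (adjusted p = 0.0134), a call lost without Saline/OVA replicates 2 or 3 or NDEP/OVA replicate 3 (adjusted p up to 0.149), with the heart and fat lists as covariates (adjusted p = 0.261) or on the 6 arrays alone (adjusted p = 0.0664).

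**Figure D2:**
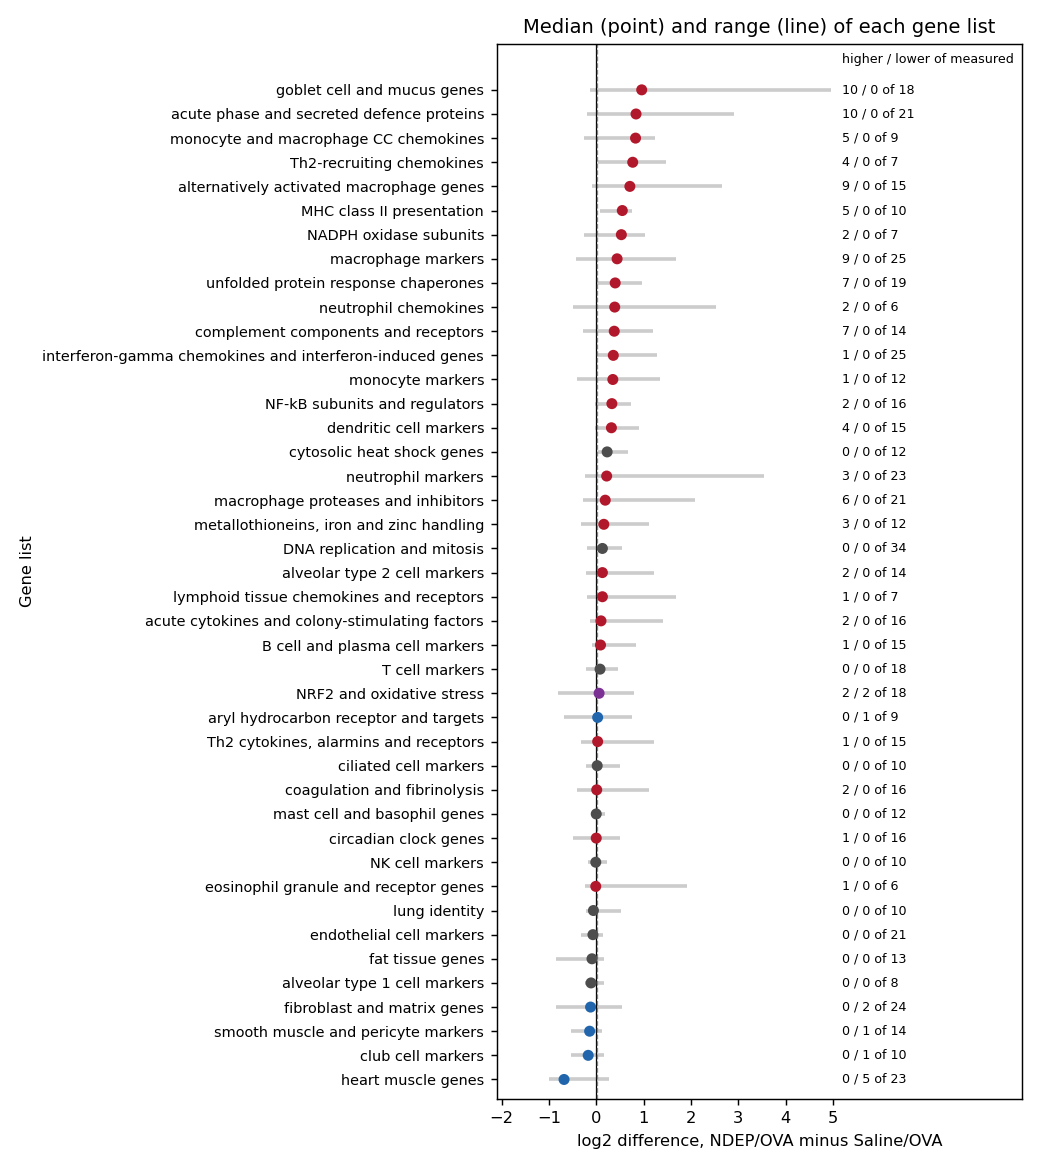
Median (point) and range (line) of the log2 difference, NDEP/OVA minus Saline/OVA, over the measured members of each gene list with at least 6 of them; the numbers at the right are the members higher, lower and measured, and the dashed line is the median of all genes (0.02). Red points mark lists with members that rose and none that fell, blue the reverse, purple both and grey neither; the goblet list is at the top with a median of 0.96 and the heart muscle list at the bottom with -0.68.

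Chitinase-like proteins and other genes of alternatively activated macrophages rose as well. Of 15 members measured, 9 rose and 0 fell, where 1.74% of all genes rose, and the median log2 difference was 0.71. For 11 of the 15 the NDEP/OVA arrays lay above the Saline/OVA arrays without overlap, against 9.21% of all genes. Chil4, a chitinase-like protein that macrophages and airway epithelium make under interleukin 4 and interleukin 13, had 7.49, 6.72 and 7.22 in NDEP/OVA lungs, against 4.40, 4.42 and 4.63 in Saline/OVA lungs. The Saline/OVA level was dim, with a mean below the 25th percentile of each Saline/OVA array, so that the difference of 2.66 ± 0.27 (adjusted p = 1.9e-06) runs from near the floor of the array. Chil3, its close relative, had 9.04, 11.04 and 11.01 in NDEP/OVA lungs, against 7.81, 8.08 and 8.25 in Saline/OVA lungs, where NDEP/OVA replicate 1 lay well below the other NDEP/OVA lungs but above every Saline/OVA lung. The Chil3 difference was 2.32 ± 0.33 (SE, limma adjusted p = 0.000213). Whether either probe set also binds the transcript of the other gene was not tested.

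Retnla, a secreted marker of alternatively activated macrophages and epithelium, had 13.62, 13.35 and 13.58 in NDEP/OVA lungs, against 11.78, 9.27 and 12.60 in Saline/OVA lungs. NDEP/OVA lungs were uniform, and Saline/OVA replicate 2 was the low array. The difference was 2.30 ± 0.44 (adjusted p = 0.00458), and without that array it was 1.33 (adjusted p = 0.00322). The SE pools all 8 groups, and fitted on the 6 compared arrays alone Retnla did not pass (adjusted p = 0.14). Clec7a, the beta-glucan receptor dectin-1, differed by 1.43 ± 0.22, and Mgl2, a galactose-binding lectin of macrophages and dendritic cells, by 1.02 ± 0.16, each with an adjusted p of 0.000486. Chia1, the acidic chitinase, rose by 1.32 ± 0.24 (adjusted p = 0.00215), with 9.92, 9.87 and 9.99 in NDEP/OVA lungs, against 8.23, 8.80 and 8.78 in Saline/OVA lungs. Arg1, the arginase of alternatively activated macrophages, had 6.16, 4.98 and 6.45 in NDEP/OVA lungs, against 4.11, 4.13 and 4.08 in Saline/OVA lungs, a difference of 1.75 ± 0.33 (adjusted p = 0.00374) in which NDEP/OVA replicate 2 was the lowest of its group and the Saline/OVA mean was dim. Of the 9 calls, 6 passed whichever array was left out, and that of Arg1 did not pass without NDEP/OVA replicate 3 (adjusted p = 0.0554).

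The sequences in front of Chil4, Chil3 and Retnla are shown because these genes rose together and are known targets of STAT6. The letters TTC and GAA were searched with 3 bases between them as a general STAT motif. With 4 bases between them they were searched as the STAT6 form, which Retnla holds and Chil4 and Chil3 do not. Each run holds the 250 bases before the start of the gene, 5′ to 3′ on the strand of the gene, from RefSeq on GRCm38.p6, and the capitals mark a match to TTCNNNGAA (Chil4, Chil3) or to TTC and GAA with 4 bases of any kind between them (Retnla).
Chil4: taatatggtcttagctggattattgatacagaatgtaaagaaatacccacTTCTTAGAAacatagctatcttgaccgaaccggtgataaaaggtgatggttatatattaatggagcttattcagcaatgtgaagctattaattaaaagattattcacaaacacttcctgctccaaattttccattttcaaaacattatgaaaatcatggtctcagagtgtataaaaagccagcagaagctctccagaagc
Chil3: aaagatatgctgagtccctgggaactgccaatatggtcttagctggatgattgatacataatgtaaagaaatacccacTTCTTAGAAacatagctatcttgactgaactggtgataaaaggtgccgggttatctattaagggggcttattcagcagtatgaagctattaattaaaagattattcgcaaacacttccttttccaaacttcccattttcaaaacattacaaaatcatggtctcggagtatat
Retnla: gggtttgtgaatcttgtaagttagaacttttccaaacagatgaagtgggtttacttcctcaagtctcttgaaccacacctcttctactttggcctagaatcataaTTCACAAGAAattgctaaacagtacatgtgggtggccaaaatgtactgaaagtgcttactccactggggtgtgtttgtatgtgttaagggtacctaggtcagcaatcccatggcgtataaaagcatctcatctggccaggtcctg
Chil4 is read from chr3:106219480-106219729 on the minus strand, Chil3 from chr3:106167565-106167814 on the minus strand and Retnla from chr16:48842359-48842608 on the plus strand. Chil4 and Chil3 hold the same match, TTCTTAGAA, which begins at -200 from the start in Chil4 and at -172 in Chil3. An alignment of the 2 runs had 202 identical columns, 19 mismatches and 58 gap columns. Identical columns were thus 72.4% of all columns, with gap columns counted as not identical. A match shared by such similar runs is not 2 separate observations. Retnla holds TTCACAAGAA, which begins at -145. Searched on both strands over the promoters of 27025 genes, TTCNNNGAA was in 8.13% and the form with 4 bases between in 6.76%. Among the 12 of the 15 highest genes that were matched to a promoter, TTCNNNGAA was in 2 (Chil4 and Chil3) and the longer form in 2 (Retnla and Lcn2), and among 8 of the 10 lowest genes the counts were 0 and 1. The C/EBP letters TTGCNNAA, in 10.8% of promoters, were in 6 of the 12 (Chil4, Retnla, Saa3, Lcn2, Mmp12 and Rnase2a) and in 3 of the 8. The aryl hydrocarbon receptor core GCGTG, in 30.9% of promoters, was in 1 of the 12 (Timp1) and 1 of the 8 (Ehd2). A match describes the letters and is not evidence of binding.

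Acute phase and secreted defence proteins were also higher. Of 21 members, 10 rose and 0 fell (median log2 difference of 0.84), where 1.74% of all genes rose. Orm1, an acute phase glycoprotein, had 7.97, 6.06 and 7.58 in NDEP/OVA lungs, against 4.43, 4.18 and 4.30 in Saline/OVA lungs, a difference of 2.90 ± 0.38 (adjusted p = 8.28e-05), with all Saline/OVA lungs dim and NDEP/OVA replicate 2 the lowest of its group. Lcn2, which binds bacterial siderophores, had 11.67, 11.44 and 11.98 in NDEP/OVA lungs, against 10.46, 8.36 and 9.93 in Saline/OVA lungs and a difference of 2.12 ± 0.36 (adjusted p = 0.00138). Saa3, the serum amyloid A of macrophages and epithelium, had 11.45, 10.46 and 11.25 in NDEP/OVA lungs, against 10.28, 7.06 and 9.45 in Saline/OVA lungs, and NDEP/OVA replicate 2 was close to Saline/OVA replicate 1. Its difference of 2.12 ± 0.49 (adjusted p = 0.0177) did not pass without Saline/OVA replicate 2 (1.19, adjusted p = 0.144), which read 7.06, and was also lost without NDEP/OVA replicate 1 (adjusted p = 0.0848) or NDEP/OVA replicate 3 (adjusted p = 0.116).

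Serpina3n, a serine protease inhibitor, rose by 1.36 ± 0.24 (adjusted p = 0.00176) and Hpx, the heme carrier hemopexin, by 1.30 ± 0.26 (adjusted p = 0.00614). Reg3g and Pglyrp1, both antibacterial proteins, rose by 1.48 ± 0.34 and 1.13 ± 0.24. The fibrinogen chains and C-reactive protein were among the 11 members that did not pass. Of the 10 calls, 3 passed whichever array was left out, and without Saline/OVA replicate 2 there were 4. The calls lost included Hpx without Saline/OVA replicate 2 (adjusted p = 0.0757), Reg3g without Saline/OVA replicate 2 or NDEP/OVA replicates 1 or 3 (adjusted p up to 0.188) and Pglyrp1 without Saline/OVA replicate 2 or NDEP/OVA replicate 3 (adjusted p up to 0.107). On the list's mean the arrays read 7.05, 6.58 and 6.88 in NDEP/OVA lungs and 6.28, 5.69 and 6.19 in Saline/OVA lungs, so Saline/OVA replicate 2 was the lowest here too. Over the 216 genes that rose, it was the lowest of the 3 Saline/OVA arrays in 64.8%, against 33.5% over all genes, and NDEP/OVA replicate 3 was the highest of its group in 66.7%, against 33.8% over all genes.

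Chemokines that recruit neutrophils came next, where 1.74% of all genes rose. Of 6 measured, 2 rose: Cxcl5, made by alveolar type 2 cells, with 7.58, 7.42 and 7.07 in NDEP/OVA lungs, against 5.30, 4.43 and 4.76 in Saline/OVA lungs, and Cxcl1, with 6.81, 6.53 and 6.80 in NDEP/OVA lungs, against 5.62, 4.10 and 4.74 in Saline/OVA lungs. The differences were 2.53 ± 0.33 (adjusted p = 7.3e-05) and 1.89 ± 0.33 (adjusted p = 0.00204), both without overlap, and both passed whichever array was left out. The 250 bases before the start of Cxcl1 (chr5:90890995-90891244, plus strand, RefSeq, GRCm38.p6) are shown because NF-kB is known to act there in mouse cells, and the capitals mark 2 matches, 1 on each strand, to GGG and TT with 2 bases of any kind between them, followed by 1 base of any kind and CC.
Cxcl1: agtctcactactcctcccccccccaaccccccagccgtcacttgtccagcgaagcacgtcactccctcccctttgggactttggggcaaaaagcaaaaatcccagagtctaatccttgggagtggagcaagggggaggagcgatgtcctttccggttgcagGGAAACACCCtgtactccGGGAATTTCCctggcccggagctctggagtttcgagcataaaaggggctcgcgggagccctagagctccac
The matches GGAAACACCC and GGGAATTTCC begin at -89 and -71. Searched on both strands, this motif was in 4.71% of 27025 promoters and in 1 of the 12 highest genes with a promoter, Cxcl1 itself, and in 1 of the 8 lowest, Myl4.

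Some marker genes of neutrophils themselves passed, where 1.74% of all genes rose. Of 23 neutrophil markers 3 rose and 0 fell (median of 0.22). Cd177, the neutrophil surface glycoprotein, had 9.86, 8.64 and 9.57 in NDEP/OVA lungs, against 6.82, 4.41 and 6.19 in Saline/OVA lungs and a difference of 3.55 ± 0.41 (adjusted p = 1.91e-05), and neither group reached the range of the other. Clec4d, a C-type lectin of myeloid cells, rose by 0.97 ± 0.17 and Il1r2, the decoy receptor for interleukin 1, by 1.01 ± 0.24. The granule and calcium-binding genes that define the cell type did not pass: S100a8 had a log2 difference of 0.08 ± 0.28, S100a9 0.33 ± 0.26, Ngp 0.14 ± 0.13 and the chemokine receptor Cxcr2 0.22 ± 0.12. The list's mean was 6.39, 6.21 and 6.54 in NDEP/OVA lungs and 5.98, 5.72 and 5.94 in Saline/OVA lungs. Among 16 acute cytokines and colony-stimulating factors, 2 rose. They were Il1rn, the interleukin 1 receptor antagonist (1.41 ± 0.26, adjusted p = 0.00275), and Csf1, the macrophage growth factor (0.42 ± 0.11, adjusted p = 0.0421). Other probe sets of Il1rn differed by 0.61 and 0.11, so its size depended on the probe set, and those of Csf1 differed by 0.41, -0.02 and 0.08. The call was lost for Il1r2 without Saline/OVA replicates 1, 2 or 3 or NDEP/OVA replicates 1 or 3 (adjusted p up to 0.209) and for Csf1 without Saline/OVA replicates 1, 2 or 3 or NDEP/OVA replicates 1 or 3 (adjusted p up to 0.2).

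Monocyte and Th2-recruiting chemokines rose in part, where 1.74% of all genes rose. Of 9 monocyte and macrophage CC chemokines, 5 rose (median of 0.83), with Ccl6 at 9.71, 10.44 and 11.32 in NDEP/OVA lungs, against 9.36, 8.73 and 9.64 in Saline/OVA lungs and a difference of 1.25 ± 0.24 (adjusted p = 0.0053). No call among these 5 passed whichever array was left out, and 0 passed without Saline/OVA replicate 2 or without NDEP/OVA replicate 3. Ccl2, the main monocyte attractant, differed by 0.80 ± 0.22 and did not pass (adjusted p = 0.0523). Of 7 chemokines that draw Th2 cells and eosinophils, 4 rose (median of 0.77), and 3 of those calls passed whichever array was left out. Ccl11, the eosinophil attractant eotaxin, had 4.97, 5.32 and 5.35 in NDEP/OVA lungs, against 4.17, 4.25 and 4.37 in Saline/OVA lungs. The Saline/OVA values were dim, the groups did not overlap, and the difference was 0.95 ± 0.14 (adjusted p = 0.000199). Ccl8 rose by 1.47 ± 0.25, the CCR4 ligands Ccl17 and Ccl22 by 0.91 ± 0.18 and 0.77 ± 0.13, and the call was lost for Ccl17 without Saline/OVA replicate 2 or NDEP/OVA replicate 3 (adjusted p up to 0.0757). Cxcl13, which organises B cell areas, had 7.87, 8.57 and 9.29 in NDEP/OVA lungs, against 7.47, 6.0 and 7.24 in Saline/OVA lungs, a difference of 1.68 ± 0.33 (adjusted p = 0.00563) that did not pass without Saline/OVA replicate 2 (adjusted p = 0.0799) or without NDEP/OVA replicate 3 (adjusted p = 0.0877). Its second probe set differed by 0.76.

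Of 15 Th2 cytokines, alarmins and receptors 1 rose (median of 0.03), where 1.74% of all genes rose. It was Il33, the epithelial alarmin, with 7.59, 8.40 and 8.16 in NDEP/OVA lungs, against 6.84, 6.73 and 6.96 in Saline/OVA lungs and a difference of 1.21 ± 0.22 (adjusted p = 0.00237). Il13 differed by 0.18 ± 0.10 (adjusted p = 0.542) and Il5 by 0.00 ± 0.12 (adjusted p = 0.999), with Il13 at 4.81, 4.44 and 4.65 in NDEP/OVA lungs, against 4.44, 4.51 and 4.42 in Saline/OVA lungs. Among 6 eosinophil genes, 1 rose. This was Rnase2a, an eosinophil-associated ribonuclease known as Ear11 in other annotation, with 4.97, 6.15 and 6.62 in NDEP/OVA lungs, against 3.80, 3.81 and 4.40 in Saline/OVA lungs and a difference of 1.91 ± 0.26 (adjusted p = 0.000111). Its Saline/OVA mean was dim, NDEP/OVA replicate 1 was the lowest of its group, and the call passed whichever array was left out. Epx, the eosinophil peroxidase, had 3.89, 3.87 and 3.89 in NDEP/OVA lungs, against 3.97, 4.03 and 3.65 in Saline/OVA lungs, without passing (difference of 0.00 ± 0.11). Of the 6 eosinophil genes, 5 had a dim mean in NDEP/OVA lungs and 6 in Saline/OVA lungs, and a change in a dim gene could be missed. Among 12 mast cell and basophil genes, 18 T cell markers and 10 natural killer cell markers 0 passed, with medians of 0.00, 0.08 and -0.01. Over all genes 2.07% passed, so counts of 0 in lists of this size are near that share. Of 15 B cell and plasma cell markers, Fcer2a, the low affinity IgE receptor CD23, rose (0.85 ± 0.17, adjusted p = 0.0059); it did not pass without Saline/OVA replicate 2 (adjusted p = 0.0671) or without NDEP/OVA replicate 3 (adjusted p = 0.0717), and its second probe set differed by 0.51.

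Macrophage markers formed a broad group with smaller changes. Of 25 measured, 9 rose and 0 fell (median of 0.44), where 1.74% of all genes rose. For 16 of the 25 the NDEP/OVA arrays lay above the Saline/OVA arrays without overlap, against 9.21% of all genes. Ctsk, the lysosomal protease cathepsin K, had 8.10, 8.99 and 9.45 in NDEP/OVA lungs, against 7.48, 6.90 and 7.11 in Saline/OVA lungs, a difference of 1.68 ± 0.22 (adjusted p = 9.9e-05). Gpnmb, a glycoprotein of lipid-laden macrophages, had 7.17, 8.03 and 8.94 in NDEP/OVA lungs, against 6.60, 6.52 and 6.63 in Saline/OVA lungs, and the integrin Itgax 8.09, 8.73 and 9.27 in NDEP/OVA lungs, against 7.59, 7.08 and 7.68 in Saline/OVA lungs. In these genes NDEP/OVA replicate 1 was the lowest of its group and no NDEP/OVA lung reached the Saline/OVA range. The differences were 1.46 ± 0.26 for Gpnmb (adjusted p = 0.00237) and 1.24 ± 0.19 for Itgax (adjusted p = 0.000486). The endosomal glycoprotein Cd68 rose by 1.43 ± 0.26, the galectin Lgals3 by 1.04 ± 0.18 and the lipid carrier Fabp5 by 0.80 ± 0.16. Marco and Msr1, scavenger receptors of alveolar macrophages, differed by 0.50 ± 0.14 and 0.51 ± 0.14 and did not pass (adjusted p = 0.0656 and 0.0574), while 3 dimmer probe sets of Msr1 differed by 1.22, 0.18 and 0.08.

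The mean of the macrophage list was 7.94, 8.32 and 8.67 in NDEP/OVA lungs, against 7.86, 7.81 and 7.83 in Saline/OVA lungs. NDEP/OVA replicate 1 was thus within 0.1 of a Saline/OVA lung on this list, although on the goblet and acute phase lists it was the highest of its group. Of the 9 calls, 5 passed without NDEP/OVA replicate 3, 5 without Saline/OVA replicate 2 and 5 whichever array was left out, and the calls lost included Fabp5 without Saline/OVA replicate 2 or NDEP/OVA replicate 3 (adjusted p up to 0.0902). Fitted on the 6 arrays alone, Gpnmb (adjusted p = 0.0769), Itgax (0.0566), Cd68 (0.057), Lgals3 (0.0755) and Fabp5 (0.059) did not pass. Chil1, a chitinase-like protein of myeloid cells and epithelium, was the 1 of 12 monocyte markers that rose (1.35 ± 0.21, adjusted p = 0.000536), with 12.49, 12.16 and 12.34 in NDEP/OVA lungs, against 11.38, 10.45 and 11.12 in Saline/OVA lungs. Of 15 dendritic cell markers 4 rose, where 1.74% of all genes did. Among them were the transcription factor Batf3 (0.58 ± 0.11) and the maturation marker Cd83 (0.84 ± 0.18). The call was lost for Batf3 without NDEP/OVA replicate 3 (adjusted p = 0.0554) and for Cd83 without Saline/OVA replicates 2 or 3 or NDEP/OVA replicate 3 (adjusted p up to 0.151).

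**Figure D3:**
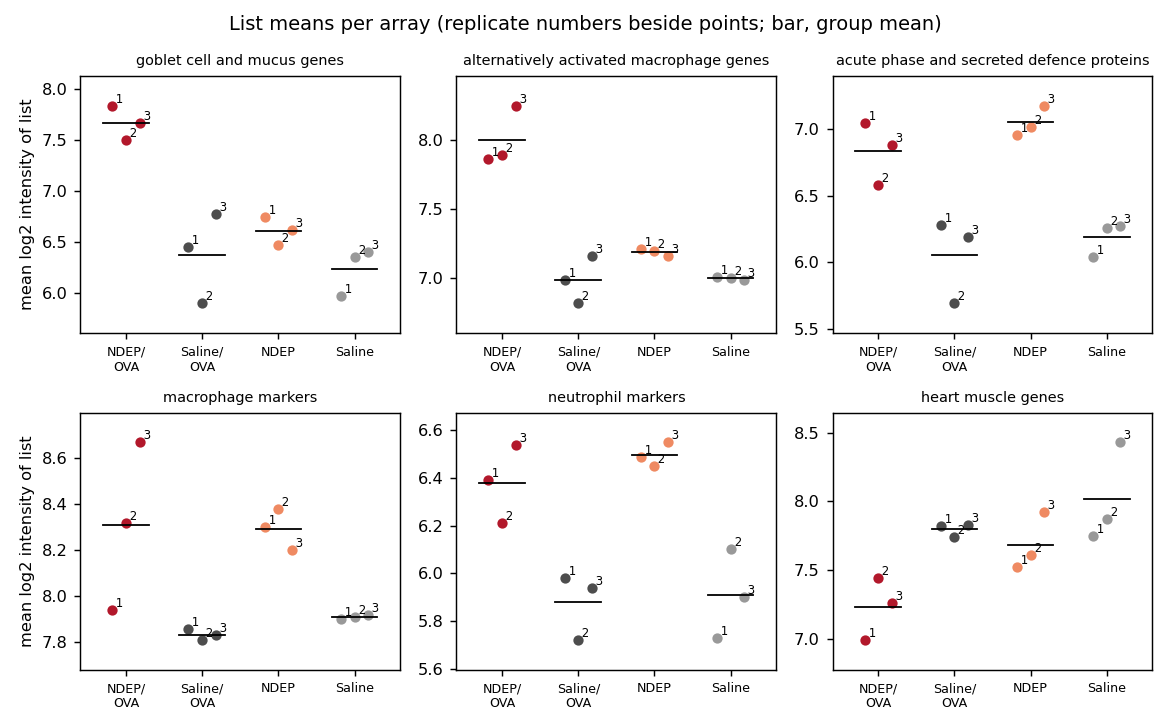
Mean log2 intensity of 6 gene lists on each array (points, with the replicate number beside them; bar, group mean) in NDEP/OVA, Saline/OVA, NDEP and Saline lungs. On the macrophage list NDEP/OVA replicate 1 (7.94) lay near the Saline/OVA arrays and replicate 3 (8.67) far above them, while on the goblet list the NDEP/OVA arrays (7.50 to 7.84) lay above the arrays of the other 3 groups.

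Proteases, complement and antigen presentation genes rose in part, where 1.74% of all genes rose. Mmp12, the macrophage elastase, had 7.15, 8.69 and 8.89 in NDEP/OVA lungs, against 6.13, 6.35 and 6.34 in Saline/OVA lungs, and the difference of 1.97 ± 0.28 (adjusted p = 0.000162) again had NDEP/OVA replicate 1 lowest. Timp1, an inhibitor of metalloproteinases, had 9.43, 8.31 and 9.39 in NDEP/OVA lungs, against 7.84, 5.96 and 7.08 in Saline/OVA lungs and a difference of 2.09 ± 0.35 (adjusted p = 0.00136). With cathepsin genes they made 6 of 21 protease and inhibitor genes that rose. Of 14 complement genes 7 rose and 0 fell (median of 0.38), among them Cfb, factor B of the alternative pathway (1.19 ± 0.25), and C1qc, a chain of C1q (0.65 ± 0.16). None of these 7 calls passed whichever array was left out: 0 passed without Saline/OVA replicate 2 and 0 without NDEP/OVA replicate 3. Of 10 genes of MHC class II presentation, 5 rose and all 10 had a positive difference (median of 0.55), with H2-Eb1 at 9.99, 10.30 and 10.74 in NDEP/OVA lungs, against 9.78, 9.75 and 9.51 in Saline/OVA lungs and a difference of 0.67 ± 0.14 (adjusted p = 0.00941). These too depended on single arrays, since 0 of the 5 passed without Saline/OVA replicate 3 and 0 without NDEP/OVA replicate 3. Of 7 NADPH oxidase genes 2 rose, the phagocyte subunit Ncf4 (0.80 ± 0.13) and the organiser Noxo1 (1.03 ± 0.17), and both passed whichever array was left out. Of 16 coagulation genes, factors F10 (1.12 ± 0.14, adjusted p = 7.16e-05) and F7 (0.87 ± 0.13, adjusted p = 0.00049) rose and also passed in all 6, though 2 dimmer probe sets of F10 differed by 0.26 each.

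Interferon genes had small positive differences, nearly all short of the threshold, where 6795 of all 12393 genes had a positive difference. All 25 measured had a positive log2 difference, with a median of 0.36, and 1 passed, Iigp1, an interferon-inducible GTPase, at 9.96, 8.88 and 9.08 in NDEP/OVA lungs, against 8.42, 7.59 and 8.04 in Saline/OVA lungs with a difference of 1.29 ± 0.30 (adjusted p = 0.0195). The call was lost without Saline/OVA replicates 2 or 3 or NDEP/OVA replicates 1 or 3 (adjusted p up to 0.161). The interferon-gamma chemokines Cxcl9 and Cxcl10 differed by 1.21 ± 0.33 (adjusted p = 0.0523) and 0.77 ± 0.29 (adjusted p = 0.217). Cxcl9 read 5.99, 5.59 and 6.70 in NDEP/OVA lungs, against 4.94, 4.65 and 5.05 in Saline/OVA lungs.

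Some genes of the response to organic compounds and oxidants passed, where 1.74% of all genes rose and 0.331% fell. Among 9 genes of the aryl hydrocarbon receptor and its targets, 0 rose and 1 fell. Cyp1a1, the classical target, had 7.48, 7.53 and 7.45 in NDEP/OVA lungs, against 6.86, 7.95 and 7.41 in Saline/OVA lungs (difference of 0.08 ± 0.26, adjusted p = 0.966), and Cyp1b1 had 7.40, 6.73 and 7.20 in NDEP/OVA lungs, against 6.54, 6.07 and 6.44 in Saline/OVA lungs (difference of 0.76 ± 0.22, adjusted p = 0.0721), with dim probe sets at 0.05 and 0.00. Nqo1, a quinone reductase, differed by -0.24 ± 0.14 (adjusted p = 0.558). The gene that fell was Aldh3a1, an aldehyde dehydrogenase (-0.69 ± 0.17, adjusted p = 0.0316), a call lost without Saline/OVA replicates 1, 2 or 3 or NDEP/OVA replicates 2 or 3 (adjusted p up to 0.151) or with the heart and fat lists as covariates (adjusted p = 0.382). Of 18 NRF2 and oxidative stress genes 2 rose and 2 fell. Hmox1, heme oxygenase 1, had 8.14, 7.67 and 8.14 in NDEP/OVA lungs, against 7.40, 7.15 and 7.24 in Saline/OVA lungs and rose by 0.72 ± 0.16 (adjusted p = 0.0174), a call lost without Saline/OVA replicates 2 or 3 or NDEP/OVA replicates 1 or 3 (adjusted p up to 0.141). Gclc, which starts glutathione synthesis, rose by 0.79 ± 0.16 (adjusted p = 0.00613), a call lost without Saline/OVA replicate 2 (adjusted p = 0.0692). Gsta3, a glutathione S-transferase, fell: it had 7.22, 7.36 and 7.43 in NDEP/OVA lungs, against 8.13, 8.12 and 8.20 in Saline/OVA lungs and a difference of -0.81 ± 0.11 (adjusted p = 9.96e-05), with narrow groups and a call that passed whichever array was left out, while its second probe set differed by -0.36. Gstm1 fell by 0.40 ± 0.10 on the log2 scale (adjusted p = 0.0274), a call lost without Saline/OVA replicates 2 or 3 or NDEP/OVA replicates 1 or 3 (adjusted p up to 0.238).

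The counts of this paragraph stand beside 1.74% of all genes that rose and 0.331% that fell. Of 12 genes of metal handling 3 rose, with the zinc importer Slc39a4 at a difference of 0.97 ± 0.16 (adjusted p = 0.000879) and the metalloreductase Steap4 at 1.12 ± 0.22 (adjusted p = 0.00592). Of 16 NF-kB genes 2 rose, Birc3 (0.73 ± 0.16) and Nfkb2 (0.57 ± 0.13). Among these the calls lost were Steap4 without Saline/OVA replicate 2 or NDEP/OVA replicate 3 (adjusted p up to 0.0671), Birc3 without Saline/OVA replicate 2 or NDEP/OVA replicates 1 or 3 (adjusted p up to 0.13) and Nfkb2 without Saline/OVA replicates 2 or 3 or NDEP/OVA replicates 1 or 3 (adjusted p up to 0.143). Second probe sets differed by less, at 0.56 for Steap4, 0.28 for Birc3 and 0.19 for Nfkb2. Chaperones of the unfolded protein response were higher in part: 7 of 19 rose and 0 fell (median of 0.40). Sdf2l1, a cofactor of the endoplasmic reticulum chaperone BiP, had 7.52, 7.47 and 8.16 in NDEP/OVA lungs, against 6.56, 6.77 and 6.92 in Saline/OVA lungs and a difference of 0.96 ± 0.18 (adjusted p = 0.00252), and was the 1 of the 7 to pass whichever array was left out. Calr, Dnajb11 and Pdia3 rose by 0.54 ± 0.11, 0.57 ± 0.12 and 0.51 ± 0.11, calls that were lost for Calr without NDEP/OVA replicate 3 (adjusted p = 0.0592), Dnajb11 without Saline/OVA replicate 2 or NDEP/OVA replicate 3 (adjusted p up to 0.117) and Pdia3 without Saline/OVA replicate 2 or NDEP/OVA replicates 1 or 3 (adjusted p up to 0.139). Of 34 genes of DNA replication and mitosis and 12 cytosolic heat shock genes, 0 passed (medians of 0.13 and 0.23).

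Genes of heart muscle were the largest listed group among those that fell, where 0.331% of all genes fell. Of 23 heart muscle genes 5 fell and 0 rose, the median was -0.68, and 22 of the 23 had a negative difference. Fabp3, the fatty acid carrier of heart muscle, had 6.88, 7.48 and 7.29 in NDEP/OVA lungs, against 8.22, 8.28 and 8.11 in Saline/OVA lungs, a difference of -0.99 ± 0.16 (adjusted p = 0.00104). Myl7, a myosin light chain of the atria, had 9.29, 10.10 and 9.73 in NDEP/OVA lungs, against 10.65, 10.54 and 10.63 in Saline/OVA lungs, and its difference of -0.90 ± 0.23 passed (adjusted p = 0.0409) but was lost without Saline/OVA replicates 1, 2 or 3 or NDEP/OVA replicates 1 or 3 (adjusted p up to 0.228). Nppa, the atrial natriuretic peptide, differed by -0.17 ± 0.43 and did not pass. Of the 5 calls, 1 passed whichever array was left out, and 0 passed with the heart and fat lists as covariates, a fit in which the heart list itself is a term.

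Of 24 fibroblast and matrix genes, Fbln1, a matrix fibulin, fell by 0.66 ± 0.13 (adjusted p = 0.00673) and the ferritin receptor Scara5 by 0.84 ± 0.20 on the log2 scale (adjusted p = 0.0262). Higd1b, a pericyte gene, was the 1 of 14 smooth muscle and pericyte markers that fell (-0.53 ± 0.14, adjusted p = 0.041). None of 21 endothelial markers passed (median of -0.07), and neither did any of 8 alveolar type 1 markers (median of -0.11), where 2.07% of all genes passed. Left out singly, arrays ended the calls of Fbln1 without Saline/OVA replicate 2 (adjusted p = 0.0955), Scara5 without Saline/OVA replicates 2 or 3 or NDEP/OVA replicates 1 or 3 (adjusted p up to 0.184) and Higd1b without Saline/OVA replicates 2 or 3 or NDEP/OVA replicates 1 or 3 (adjusted p up to 0.318). Scara5 was also lost with the heart and fat lists as covariates (adjusted p = 0.0503) or on the 6 arrays alone (adjusted p = 0.0916), and its second probe set differed by 0.06. Ehd2, which stabilises caveolae, had 8.66, 8.63 and 8.08 in NDEP/OVA lungs, against 9.35, 9.51 and 9.37 in Saline/OVA lungs and a difference of -0.96 ± 0.16 (adjusted p = 0.00135) that passed whichever array was left out, while its other probe sets differed by -0.37 and -0.08. Pon1, a lipoprotein-bound esterase, had 8.54, 8.39 and 8.0 in NDEP/OVA lungs, against 9.21, 9.26 and 9.46 in Saline/OVA lungs and fell by 1.0 ± 0.21 on the log2 scale (adjusted p = 0.00861), but did not pass with the heart and fat lists as covariates (adjusted p = 0.273) and was lost without Saline/OVA replicate 3 or NDEP/OVA replicate 3 (adjusted p up to 0.105). Alas2, the erythroid enzyme of heme synthesis, had 8.19, 6.92 and 6.95 in NDEP/OVA lungs, against 8.25, 9.65 and 9.38 in Saline/OVA lungs and the largest negative difference, -1.74 ± 0.46 (adjusted p = 0.0461). NDEP/OVA replicate 1 was close to Saline/OVA replicate 1 in this gene, and the call was lost without Saline/OVA replicates 2 or 3 or NDEP/OVA replicates 2 or 3 (adjusted p up to 0.27). Hnrnpab, an RNA-binding protein, fell by 1.09 ± 0.23 (adjusted p = 0.00933) on its brightest probe set, but its 6 other probe sets differed by between -0.05 and 0.15, and the mean over its probe sets did not pass (adjusted p = 0.571). On the brightest probe set the call was lost without Saline/OVA replicate 3 or NDEP/OVA replicate 3 (adjusted p up to 0.126).

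The effect of NDEP could also be read without ovalbumin, in 3 NDEP and 3 Saline lungs that share no array with the comparison above. NDEP alone had 279 genes higher and 56 lower than saline (2.25% and 0.452% of genes tested, 2.7% in either direction). Of these, 105 were among the 216 that rose in NDEP/OVA lungs against Saline/OVA lungs, which is 48.6% of the NDEP/OVA list and 37.6% of the NDEP list. Among genes that fell, 1 was shared (2.44% and 1.79%). The sign carried over further than the calls, since 208 of the 216 had a positive difference after NDEP alone and 36 of the 41 a negative one (6319 of all 12393 genes were positive), with median log2 differences of 0.54 and -0.20. Acute phase and neutrophil chemokine genes were on both lists: Orm1 differed by 2.90 with ovalbumin and by 3.0 after NDEP alone, Saa3 by 2.12 and 2.61, Cxcl1 by 1.89 and 2.38, and Cxcl5 by 2.53 and 2.01. Goblet and chitinase-like genes were mostly not. Among those that were not, Clca1 differed by 4.96 with ovalbumin and by -0.12 after NDEP alone, and Chil3 by 2.32 and 0.09. Fcgbp differed by 1.62 and -0.03, and Muc5ac by 1.37 and 0.27. On the goblet list 3 of 18 genes rose after NDEP alone (median of 0.20), and on the alternatively activated list 2 of 15 (median of 0.09). The summed intensity of the goblet list was 5561 to 6536 in NDEP lungs and 3062 to 3983 in Saline lungs. That of the alternatively activated list was 11088 to 13353 and 8108 to 8701. Both lists thus also lay higher after NDEP alone, without overlap. Set directly against NDEP lungs, NDEP/OVA lungs had 14 genes higher and 20 lower (0.113% and 0.161%, 0.274% in all). The values that follow are of some of the higher genes, and the 20 lower genes are not described here. Goblet and chitinase-like genes were among the higher ones, with Clca1 at 7.17 ± 0.90 (adjusted p = 7.69e-05), Chil4 at 2.83 ± 0.27, Agr2 at 2.39 ± 0.45, Rnase2a at 2.17 ± 0.26, Chil3 at 2.06 ± 0.33 and Muc5ac at 1.21 ± 0.18 (adjusted p = 0.000791). These values come from the same NDEP/OVA arrays as the comparison above. By them the means of Clca1 in NDEP and Saline lungs lay near the 25th percentile of the arrays (log2 4.45 to 4.64). Its difference after NDEP alone, its difference from NDEP lungs and its interaction, given below, are thus taken against values near the floor.

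**Figure D4:**
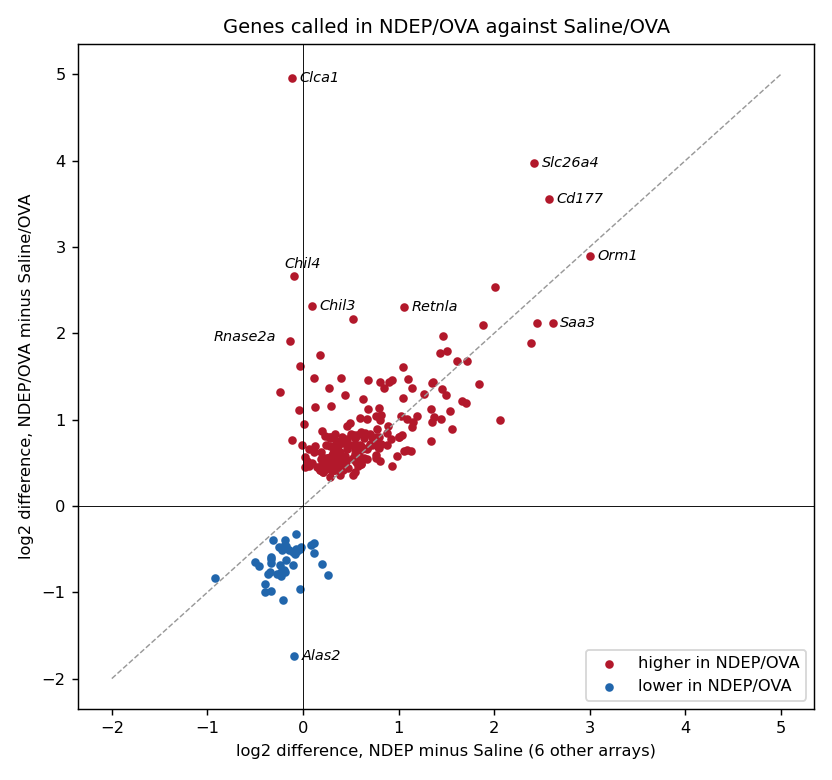
Log2 difference of NDEP/OVA minus Saline/OVA (vertical) against NDEP minus Saline (horizontal) for the 257 genes past the threshold in the first comparison, with the line of equal differences dashed. Clca1, Chil4, Chil3 and Rnase2a lie near 0 on the horizontal axis, while Orm1, Saa3 and Cd177 differ by more than 2 on both; the vertical values are those that chose the genes.

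Whether the NDEP effect differed with and without ovalbumin was tested as an interaction across all genes. It passed for 3 genes (0.0242% of those tested), all with a larger NDEP effect under ovalbumin, while 764 had an unadjusted p under 0.05. Chil4 had an interaction of 2.75 ± 0.38 (adjusted p = 0.00177): its levels were 7.49, 6.72 and 7.22 in NDEP/OVA lungs, against 4.40, 4.42 and 4.63 in Saline/OVA lungs, and 4.35, 4.40 and 4.18 in NDEP lungs and 4.31, 4.44 and 4.46 in Saline lungs. The lowest NDEP/OVA lung lay above every lung of the other 3 groups. Rnase2a had an interaction of 2.05 ± 0.37 (adjusted p = 0.0386), with 3.74, 3.73 and 3.77 in NDEP lungs and 3.79, 3.95 and 3.93 in Saline lungs, but it was lost without either of Saline/OVA replicates 1 and 2 (adjusted p = 0.156 and 0.144), NDEP/OVA replicates 2 and 3 (0.103 and 0.104) or any NDEP or Saline array (0.0668 to 0.12). Cd209e, a C-type lectin of the DC-SIGN family, had 4.90, 5.02 and 4.97 in NDEP/OVA lungs, against 3.90, 3.78 and 3.76 in Saline/OVA lungs, and 3.88, 4.08 and 3.94 in NDEP lungs and 3.76, 3.97 and 3.77 in Saline lungs, giving an interaction of 1.02 ± 0.16 (adjusted p = 0.00855). The NDEP/OVA arrays of this gene were nearly equal, while the other 9 arrays lay at 3.76 to 4.08, below the 25th percentile of the arrays, so that the size of the interaction is taken against dim values. For Chil4 and Rnase2a the means of the same 3 groups were dim too. The interaction of Clca1 was larger but less precise, at 5.08 ± 1.27 (adjusted p = 0.271), and those of Chil3 (2.22 ± 0.47), Fcgbp (1.65 ± 0.35) and Chia1 (1.57 ± 0.33) each had an adjusted p of 0.113. Muc5ac (1.10 ± 0.25, adjusted p = 0.173) and Ccl11 (0.95 ± 0.19, adjusted p = 0.106) did not pass either. The interactions of Saa3 (-0.49 ± 0.69), Lcn2 (-0.34 ± 0.51) and Cxcl1 (-0.49 ± 0.47) were negative and far from the threshold (adjusted p = 0.973, 0.978 and 0.946). With the heart and fat lists as covariates no gene passed the interaction (adjusted p of Chil4 = 0.0842), and with the RNA quality measures 1 did (Cd209e; adjusted p of Chil4 = 0.069).

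**Figure D5:**
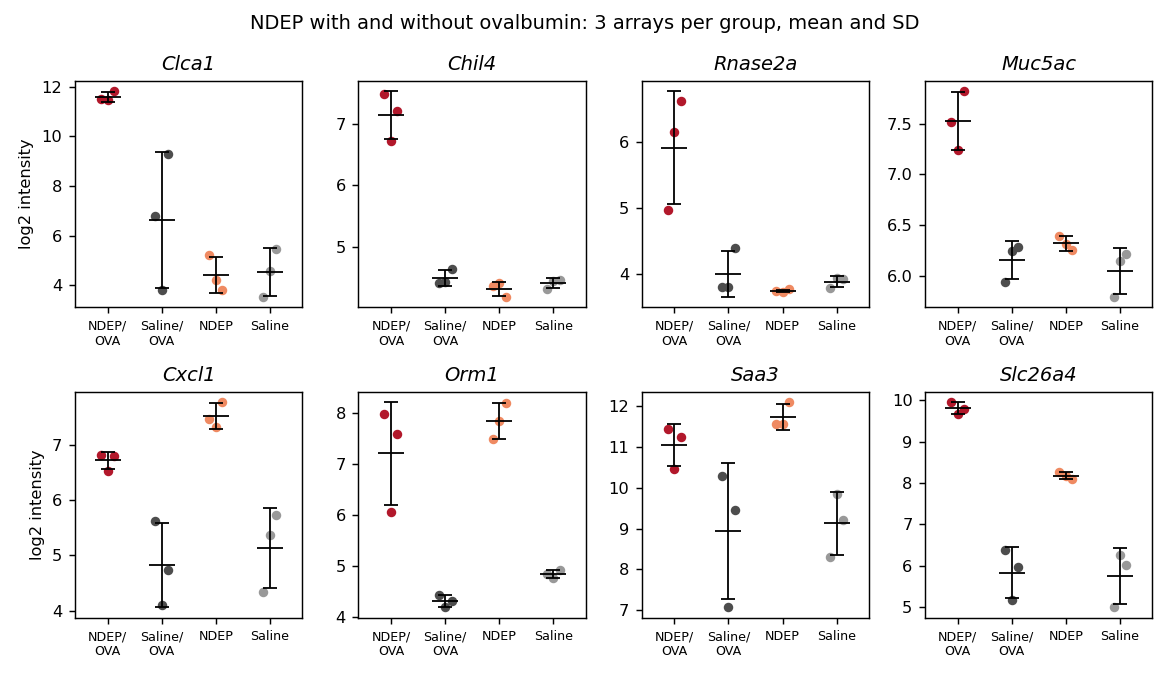
Log2 intensity of 8 genes in NDEP/OVA, Saline/OVA, NDEP and Saline lungs, with 3 arrays per group as points and the mean and SD as bars; the vertical axes differ between genes and do not start at 0. Chil4, Rnase2a and Muc5ac were higher in each NDEP/OVA lung than in any lung of the other 3 groups, whereas Cxcl1, Orm1 and Saa3 were at least as high in NDEP lungs as in the lowest NDEP/OVA lung.

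The other particle samples were given with ovalbumin at the same dose and times, so NDEP/OVA lungs could be set directly against ADEP/OVA and CDEP/OVA lungs. Against ADEP/OVA, 2 genes passed (0.0161%), both higher in NDEP/OVA, with 1338 at an unadjusted p under 0.05. Chil4 had 7.49, 6.72 and 7.22 in NDEP/OVA lungs, against 4.87, 5.61 and 5.13 in ADEP/OVA lungs and differed by 1.94 ± 0.27 (adjusted p = 0.0019). Fabp5, which carries fatty acids in macrophages and epithelium, had 9.85, 10.44 and 10.58 in NDEP/OVA lungs, against 9.24, 9.55 and 9.19 in ADEP/OVA lungs and differed by 0.96 ± 0.16 (adjusted p = 0.0222), NDEP/OVA replicate 1 being the lowest of its group. The Fabp5 call was lost without NDEP/OVA replicate 2 (adjusted p = 0.0675) or 3 (0.184) and without ADEP/OVA replicate 1 (0.209) or 3 (0.068), while that of Chil4 passed in each such fit. Against CDEP/OVA 1 gene passed (0.00807%), with 908 at an unadjusted p under 0.05. Gbp6, an interferon-inducible guanylate-binding protein, was lower in NDEP/OVA lungs, with 6.46, 5.69 and 6.38 in NDEP/OVA lungs, against 8.08, 8.03 and 7.04 in CDEP/OVA lungs, a difference of -1.54 ± 0.21 (adjusted p = 0.0016). Cxcl9 (-1.65 ± 0.33, adjusted p = 0.0804) and Cxcl10 (-1.41 ± 0.29, adjusted p = 0.0921) were lower than in CDEP/OVA lungs by more than 1 log2 unit without passing. Over the 25 interferon genes the median difference from CDEP/OVA was -0.48.

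Set against the same 3 Saline/OVA arrays, which all of these comparisons share, ADEP/OVA had 78 genes higher and 7 lower (0.629% and 0.0565%, 0.686% in all) and CDEP/OVA 449 higher and 145 lower (3.62% and 1.17%, 4.79% in all). Clca1 differed from Saline/OVA by 4.96 in NDEP/OVA lungs, 2.99 in ADEP/OVA and 5.31 in CDEP/OVA, and Muc5ac by 1.37, 0.50 and 1.93 in the same order. Chil4 differed by 2.66, 0.72 and 3.62, whereas Saa3 differed by 2.12, 2.41 and 2.20. The direct test between NDEP/OVA and CDEP/OVA gave -0.35 ± 0.90 for Clca1 (adjusted p = 0.961), -0.56 ± 0.18 for Muc5ac (adjusted p = 0.467) and -0.96 ± 0.27 for Chil4 (adjusted p = 0.355), and none passed. The test against ADEP/OVA gave 0.87 ± 0.18 for Muc5ac (adjusted p = 0.0968) and 1.97 ± 0.90 for Clca1 (adjusted p = 0.426).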

How the data were processed

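Lung RNA of 24 mice, 1 array each, was measured on 1-colour Affymetrix arrays from biotin-labelled cRNA made from 2 ug of total RNA, per the labels' protocols. The authors' deposited values are intensities on a linear scale (5.98 to 18195.5, with array medians between 72.2 and 75.5), normalized with RMA, a tool that the submitters' processing notes name without a version or settings. Because of the linear scale, log2 was taken first. Background and normalization were done before deposit and could not be changed here, and RMA compresses differences of dim probe sets. No 2 arrays shared more than 0.0353% of their values, so all were counted as separate samples. The number of arrays limits the precision: an exact permutation test of 3 against 3 cannot go below p = 0.1, so every p-value comes from the fit across genes.

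Of 22690 probe sets, 64 were controls, 1555 had no gene symbol in the platform annotation and 691 had several. For each of the 12393 genes named by 1 symbol the probe set with the highest mean log2 over all arrays was used (4956 genes had more than 1), and 12369 symbols were matched in the RefSeq table. limma 3.58.1 in R 4.3.3 fitted the means of all 8 groups together (lmFit, contrasts.fit and eBayes), and its two-sided p-values, adjusted over all genes after Benjamini and Hochberg, made a call at 0.05. Each SE after ± is that of this fit, with the spread of a gene pooled over all 8 groups and moderated across genes. Where the compared arrays are spread more widely, as for Clca1 and Retnla, it is smaller than those arrays alone would give. A mean was called dim below the 25th percentile of each array of its group (log2 4.45 to 4.64 over the arrays). On data simulated for 12393 genes with 200 changed, the NDEP/OVA against Saline/OVA test found 79.4% of 1.5-fold, 98.1% of 2-fold and 100% of 4-fold changes with 4.62% false calls, and the interaction found 40%, 88.5% and 99.5% with 5.57% false calls. The simulated noise was normal and independent between genes and arrays. Each gene had the same spread in all groups and the same shift on each NDEP/OVA array. Unequal spread, as in Clca1, and effects shared by the genes of an array were not simulated, so these rates may not hold for the data here.

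The genes named are the 15 highest and 10 lowest differences past the threshold without overlap, the members of each described list that had the smallest p (at most 4), 16 genes chosen in advance by function, and up to 5 each way in the interaction and the direct comparisons. Other list members named with values (for example Muc5b, Agr2, Pigr, Chia1, Arg1, Cd68, Itln1), Cxcl9, Cxcl10 and the genes of the closing paragraphs were chosen after their values were seen. The 43 gene lists and the comparison were chosen with earlier results of these data known. For Rnase2a the annotation's own symbol was matched to the list symbol Ear11 through synonyms. Promoters are from RefSeq on GRCm38.p6. The alternatives tried were the choice of probe set, a filter on dim probe sets, a further quantile normalization, array weights, a trended robust variance, a replicate block, the heart muscle and fat lists or the RNA quality measures as covariates, a fit of the compared groups alone, and leaving out each array.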

Additional observations from a re-analysis of the deposited data

Results flagged for a closer look

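A tested difference between the NDEP effects with and without ovalbumin singled out 3 genes, each with 3 arrays in each of the 4 groups. Chil4 had an interaction of 2.75 on the log2 scale (limma adjusted p = 0.00177, and 1.69e-05 to 0.0842 over the alternatives run). Cd209e had an interaction of 1.02 (adjusted p = 0.00855, and 0.00376 to 0.0942 over the alternatives run). Rnase2a had an interaction of 2.05 (adjusted p = 0.0386, and 1.07e-05 to 0.211 over the alternatives run). Its call was lost with the mean over probe sets (0.0532), after quantile normalization (0.0609) and with the trended variance (0.163). It was also lost with the heart and fat covariates (0.211), the RNA quality covariates (0.0682) and only the compared groups (0.172). In each of them all 3 NDEP/OVA arrays lay above the arrays of the other 3 groups.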

How the results depend on the processing

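The count of genes past the threshold between NDEP/OVA and Saline/OVA was 257, and it lay between 229 and 330 under another choice of probe set, the filter on dim probe sets, quantile normalization, a trended robust variance, the replicate block and both sets of covariates. It was 400 with array weights and 102 when only the compared groups were fitted, and leaving out 1 array gave 78 to 423. The interaction, with 3 genes, gave 5 over all probe sets, 13 with array weights, 0 with the heart muscle and fat lists as covariates, 1 with the RNA quality covariates and 6 with only the compared groups, and 2 to 6 when 1 array was left out. The comparison with ADEP/OVA, with 2 genes, gave 1 with the mean over probe sets, 5 with array weights, 1 with only the compared groups and 1 to 6 without 1 array. The comparison with CDEP/OVA, with 1 gene, gave 2 after quantile normalization, 13 with array weights, 9 with the RNA quality covariates, 0 with only the compared groups and 1 to 30 without 1 array. The cause of these movements was not tested, except that a fit of the compared groups alone has fewer arrays behind its estimate of the spread. Of the 105 genes past the threshold that are named in the text, calls lost were 0 with the dim filter and with array weights, 2 after quantile normalization, 7 over all probe sets, 8 with the mean over probe sets, 9 with the trended variance, 10 with the RNA quality covariates, 24 with the heart and fat covariates and 51 with only the compared groups.

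The replicate numbers were not taken to pair the mice. Deviations of same-numbered NDEP/OVA and Saline/OVA arrays from their group means correlated at 0.17, 0.2 and -0.04, and 4 of the 6 arrays correlated best with their own number. With the replicate number as a block the counts were 268 for NDEP/OVA against Saline/OVA, 7 for the interaction, 4 against ADEP/OVA and 6 against CDEP/OVA, and 3 of the 105 calls were lost (Alas2, Csf1 and Gstm2).

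Of the genes named in the text, those whose direction turned under an alternative were Cyp1a1, S100a8, Il5, Epx and Nppa, none of which passed in the fit reported. Cyp1a1 was -0.30 with the heart and fat covariates and -0.19 to 0.35 without 1 array. S100a8 was -0.20 to 0.34 without 1 array. Il5 lay at 0.00 after quantile normalization, -0.06 with array weights, -0.11 with the heart and fat covariates, -0.02 with the RNA quality covariates, and -0.09 to 0.10 without 1 array. Epx lay at 0.01 after quantile normalization, 0.03 with array weights, 0.07 with the heart and fat covariates, 0.01 with the RNA quality covariates, and -0.12 to 0.07 without 1 array. Nppa was 1.14 with the heart and fat covariates and -0.42 to 0.10 without 1 array. Dim genes are limited most, and 16 of the 216 genes that rose had a dim Saline/OVA mean.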

Other observations

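Among the 257 genes past the threshold, 150 were on none of the 43 lists, 122 higher and 28 lower, and those named here were chosen after their values were seen. No list or test stands behind their choice. Ms4a6d, a membrane protein of macrophages, had 7.58, 7.54 and 8.10 in NDEP/OVA lungs, against 6.32, 5.81 and 6.27 in Saline/OVA lungs, a difference of 1.61 ± 0.19 (limma adjusted p = 1.91e-05), and its other probe sets differed by 1.18 and 0.07. Clec4n, the C-type lectin dectin-2, differed by 1.43 ± 0.25, the chemokine receptor Ccr1 by 1.29 ± 0.23, and the IgG receptor Fcgr3 by 1.05 ± 0.14. The signalling proteins Syk, Tyrobp and Fcer1g rose by 0.75 ± 0.10, 0.80 ± 0.17 and 0.70 ± 0.17, and Csf2ra and Csf2rb, chains of the receptor for granulocyte-macrophage colony-stimulating factor, by 0.80 ± 0.13 and 0.99 ± 0.20. Ch25h, which makes 25-hydroxycholesterol, had 7.71, 7.99 and 8.66 in NDEP/OVA lungs, against 6.53, 5.82 and 6.64 in Saline/OVA lungs and a difference of 1.79 ± 0.22 (adjusted p = 3.91e-05). Of these, Ms4a6d, Clec4n, Ccr1, Fcgr3, Syk, Csf2ra and Ch25h passed whichever of the 6 arrays was left out, and the calls lost were Tyrobp without Saline/OVA replicate 2 or NDEP/OVA replicate 3 (adjusted p up to 0.111), Fcer1g without Saline/OVA replicates 2 or 3 or NDEP/OVA replicate 3 (adjusted p up to 0.233) and Csf2rb without Saline/OVA replicate 2 or NDEP/OVA replicate 3 (adjusted p up to 0.0849).

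Among the 28 genes that fell on no list, the peroxisomal catalase Cat had 8.75, 9.23 and 8.62 in NDEP/OVA lungs, against 9.28, 9.36 and 9.46 in Saline/OVA lungs, a difference of -0.50 ± 0.13 (adjusted p = 0.049). The epoxide hydrolase Ephx1 differed by -0.47 ± 0.10, the glutathione transferase Gstk1 by -0.47 ± 0.10 and the carboxylesterase Ces2g by -0.59 ± 0.15. The calls lost were Cat without Saline/OVA replicates 1, 2 or 3 or NDEP/OVA replicates 1 or 3 (adjusted p up to 0.35), Ephx1 without Saline/OVA replicate 2 or NDEP/OVA replicates 1 or 3 (adjusted p up to 0.119), Gstk1 without Saline/OVA replicate 2 or NDEP/OVA replicate 3 (adjusted p up to 0.0979) and Ces2g without Saline/OVA replicates 1, 2 or 3 or NDEP/OVA replicates 1 or 3 (adjusted p up to 0.189). With the heart and fat lists as covariates Cat, Ephx1 and Gstk1 did not pass (adjusted p = 0.565, 0.0522 and 0.0806), and neither did they on the 6 arrays alone (adjusted p = 0.17, 0.0656 and 0.0623). Csf2, the cytokine read by the receptor above, differed by 0.27 ± 0.13 between NDEP/OVA and Saline/OVA lungs (adjusted p = 0.436) and by 1.27 after NDEP alone, with an interaction of -1.0 ± 0.19 (adjusted p = 0.0608).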
